A study of Mus musculus with 3 samples.

Results

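The vehicle library of this study is described here on its own, as a picture of which genes a contact-sensitised inguinal lymph node expressed and at what level. It was chosen by its label, is 1 of 3 libraries in the study, and was compared with neither of the others. The mice were male C57BL/6j animals that received dinitrofluorobenzene (DNFB), a contact sensitiser that modifies skin proteins, on the skin of the abdomen. From 3 days later they were given the ethanol vehicle by intraperitoneal injection, the carrier used for the vitamin D3 derivatives of the other groups. The sample labels describe 4 daily injections of the D3 compounds and collection 24 hours after the last, whereas the series description speaks of 1 week, so the age of the reaction is known within these limits. Total RNA was extracted with Trizol. The sources used here do not give the number of animals behind the library or whether nodes were pooled, and none of the labelled groups is an unsensitised node.

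Lymph nodes filter lymph from the skin and bring dendritic cells that carry antigen together with naive lymphocytes, which enter from the blood through high endothelial venules. B cells gather in follicles around follicular dendritic cells that make the chemokine Cxcl13, while T cells move in the paracortex on a scaffold of fibroblastic reticular cells that make Ccl19 and Ccl21. Macrophages line the sinuses, and the inguinal node lies within a fat pad.

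Levels are given as FPKM, fragments scaled by transcript length and sequencing depth, so that genes of different length can be compared, and as reads, the whole-number counts recovered from the deposited normalised counts. The library held 8226431 reads and a summed FPKM of 581683. With no replicate, no value has a spread and no test was made, and each describes this library. Intervals are exact 95% intervals and cover counting error of the reads. In a bulk library, fewer cells of a type and less RNA per cell cannot be told apart, so a marker level is not a share of cells. Ranks run from 1, the highest, over all 46951 loci of the table, and a position is that of the table's locus on GRCm38, which can span neighbouring genes.

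Of the 46951 loci, 20362 had at least 1 read and 13907 (29.6%) stood at or above 1 FPKM, the level taken here as detected. Among the 21194 protein-coding loci, 11931 (56.3%) were detected. Counts of detected list members given below stand beside this share. The lists hold chosen genes, so nothing is read from these counts. The median detected locus stood at 11.5 FPKM, with quartiles of 4.07 and 28.3 FPKM, and their 99th percentile was 513 FPKM. High levels were rare, since 787 loci reached 100 FPKM and 91 reached 1000 FPKM. At the low end, 724 detected loci rested on fewer than 10 reads.

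Expression was concentrated in few genes. The 10 highest loci held 10.3% of the summed FPKM, the 100 highest held 34.8% and the 1000 highest held 63.0%, and 366 loci sufficed for 50%. Ranked by reads, concentration was weaker, and 1106 loci were needed for 50% of the reads. The highest genes by FPKM had short transcripts. Among detected protein-coding genes with a locus of their own, the 100 highest had a median longest transcript of 1128 bases. Ranks 101 to 1000 had one of 2178 bases, ranks 1001 to 5000 one of 2909 bases, and the rest one of 3384 bases. Without ribosomal protein genes, 48 of the 100 highest remained, with a median of 1619 bases. The median of ranks 101 to 1000 was then 2183 bases.

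**Figure D1:**
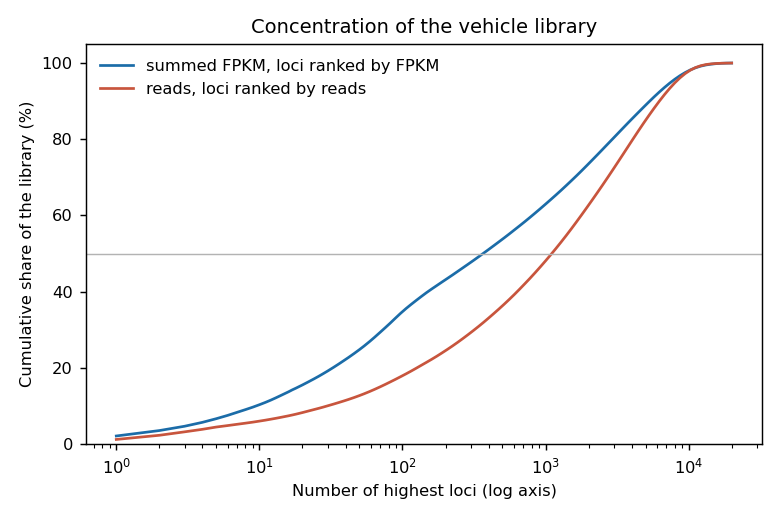
Cumulative share of the vehicle library (y axis, percent) held by the highest loci (x axis, number of loci, log scale), as summed FPKM with loci ranked by FPKM and as reads with loci ranked by reads. The grey line marks 50%, which the FPKM curve crosses at 366 loci and the read curve at 1106 loci.

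By gene class, the machinery of protein synthesis took the largest recognisable part. The 88 ribosomal protein loci, of which 84 were detected, held 20.9% of the summed FPKM and 6.80% of the reads (interval 6.79% to 6.82%), and they filled 67 of the 100 highest places. Immunoglobulin loci held 1.67% of the FPKM and 0.646% of the reads (0.641% to 0.652%), and T cell receptor loci 0.299% of the FPKM. Loci that the GENCODE annotation calls long noncoding held 2.13% and pseudogenes 0.885% of the FPKM. A few of the loci called noncoding are known to encode proteins, such as Ifi30, a lysosomal reductase, at 416 FPKM (3085 reads). Mitochondrial loci held 3.56% of the FPKM, all in the locus that joins mt-Nd1 and mt-Nd2 to ribosomal RNA genes (12412 FPKM) and the locus of mt-Cytb (8271 FPKM). The loci of 10 of the 13 mitochondrially encoded messages were listed at 0, so a listed 0 in this table can be a failed estimate, and no upper limit is drawn from it below.

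Of the 25 highest named genes outside joined loci, 16 encode ribosomal proteins and 9 do not. Ribosomal proteins were led by Rps27 at 5979 FPKM (9078 reads, chromosome 3), Rps24 at 5029.9 FPKM and Rplp1 at 4749.6 FPKM. Genes of this class have many near-identical pseudogenes, so their single values are uncertain. The 9 others were Tmsb4x, which encodes the actin-monomer binding peptide thymosin beta 4 (3750.0 FPKM, rank 9, chromosome X), the growth-related protein gene Tpt1 (3677 FPKM), the MHC class I light chain gene B2m (3492 FPKM), beta actin Actb (3054 FPKM), thymosin beta 10 Tmsb10 (2484 FPKM), the lymphocyte surface peptide gene Cd52 (2351 FPKM), the MHC class II alpha chain gene H2-Aa (2341 FPKM), the lipid carrier gene Apoe (2177 FPKM) and the surface protein gene Ly6e (2038 FPKM).

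Antigen presentation genes were high as a group. All 9 MHC class II pathway genes were above 100 FPKM, with a median of 314 FPKM and a sum of 11807 FPKM, 2.03% of the library's FPKM and 1.39% of its reads (1.38% to 1.40%). Cd74, the invariant chain that escorts class II molecules, was the highest at 5567 FPKM (54824 reads, rank 5), in a locus that also holds noncoding genes. The classical chains followed, with H2-Aa at 2341 FPKM (20658 reads), H2-Ab1 at 1641 FPKM and H2-Eb1 at 1158 FPKM. The peptide editors H2-DMa, H2-DMb2 and H2-DMb1 stood at 222, 314 and 136 FPKM, and H2-Ob and H2-Oa, which modulate editing mainly in B cells, at 253 and 175 FPKM. The editors and modulators were thus several times lower than the chains they serve. H2-DMb1 and H2-DMb2 are close copies, with 37.6% and 42.7% of their 31-base words found in other genes, so their split is uncertain.

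MHC class I genes, which present peptides of the cell's own proteins, summed to 7827 FPKM over 13 measured members with a median of 255 FPKM. The class II sum was 1.51 times the class I sum. B2m led at 3492 FPKM (21968 reads), before the heavy chain genes H2-K1 at 1358 FPKM and H2-D1 at 1109.8 FPKM. The peptide transporter genes Tap1 and Tap2 stood at 133 and 114 FPKM, and the immunoproteasome genes Psmb8 and Psmb9 at 268 and 109.5 FPKM. H2-M3, which presents formylated peptides, was the lowest at 34.7 FPKM. H2-Q4 and H2-Q6 (279.7 and 255 FPKM) shared 53.3% and 51.8% of their words with other genes, so their values are uncertain.

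Class II promoters carry a Y box, a reverse CCAAT element bound by the factor NF-Y, next to an X box bound by the RFX complex, and Ciita docks on both. The letters GATTGG, the core of a Y box, were sought on both strands from 250 bases before to 50 after each gene's start in the RefSeq promoter table (GRCm38.p6). They were chosen after the sequences had been read. The motif was present in 18.2% of 27025 genes, in 23.2% of the 9055 genes of that table detected here and in 25.0% of 763 genes among the 1000 highest. It was present in 7 of the 7 class II genes with an entry, of 9 listed, and in 10 of 13 class I genes. Since the letters were chosen after the sequences had been read, these counts are not independent of that choice. Nothing is read from them beside the shares above. A match is a description of these letters and not of binding. The windows below are written on the gene's own strand, with GATTGG in capitals. They show the motif in H2-Aa, H2-Eb1, H2-DMb2, H2-DMb1, H2-Ob, H2-Oa and B2m. No window is shown for Cd74, H2-Ab1 or H2-DMa.
H2-Aa, 2341 FPKM, chr17:34287852-34287917, minus strand: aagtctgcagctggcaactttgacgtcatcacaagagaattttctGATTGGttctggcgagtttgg
H2-Eb1, 1158 FPKM, chr17:34305762-34305827, plus strand: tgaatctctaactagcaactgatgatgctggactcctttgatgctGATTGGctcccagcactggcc
H2-DMb2, 314 FPKM, chr17:34145113-34145178, plus strand: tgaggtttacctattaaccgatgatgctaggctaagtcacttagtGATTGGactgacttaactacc
H2-DMb1, 136 FPKM, chr17:34153084-34153149, plus strand: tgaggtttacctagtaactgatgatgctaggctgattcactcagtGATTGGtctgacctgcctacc
H2-Ob, 253 FPKM, chr17:34238802-34238867, plus strand: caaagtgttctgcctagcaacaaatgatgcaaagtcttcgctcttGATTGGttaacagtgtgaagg
H2-Oa, 175 FPKM, chr17:34092290-34092355, plus strand: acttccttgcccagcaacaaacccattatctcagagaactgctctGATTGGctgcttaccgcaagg
B2m, 3492 FPKM, chr2:122147588-122147653, plus strand: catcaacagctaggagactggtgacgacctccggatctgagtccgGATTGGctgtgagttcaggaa
The motif began 44 to 91 bases before the annotated gene start in these 7 genes. The co-activators and RFX subunits stood below the 7 genes shown, but above the median detected locus at 11.5 FPKM. No value is given here for NF-Y. Ciita, the class II co-activator, stood at 35.9 FPKM (1693 reads), and Nlrc5, its class I counterpart, at 87.5 FPKM (1913 reads). The RFX subunits stood at 27.2 FPKM for Rfx5, 16.3 FPKM for Rfxank and 12.5 FPKM for Rfxap.

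Other shared programmes ranged from very high to barely measurable. The 21 measured translation factors had a median of 362 FPKM and were led by the elongation factor Eef1a1 at 6579 FPKM (89996 reads), 74.8% of whose words occur in other genes, then Tpt1, and Rack1, a scaffold on the ribosome, at 1205 FPKM. Eif3a, a subunit of initiation factor 3, was its lowest member at 53.5 FPKM. The 24 actin cytoskeleton genes had a median of 308 FPKM and summed to 17982 FPKM, close to the translation factors' 18142 FPKM. Behind Tmsb4x, Actb and Tmsb10 came Pfn1 and Cfl1, which load and sever actin filaments, at 1742 and 1128 FPKM, and the leukocyte actin regulator Coro1a at 685 FPKM. Wasf2, an activator of branched actin, was lowest at 37.5 FPKM. In this list, 52.4% of the words of Tmsb10 and 35.3% of those of Actb occur in other genes. Glycolytic genes had a median of 41.0 FPKM, from Gapdh at 538 FPKM, Aldoa at 354 FPKM and Gpi1 at 269 FPKM to the inducible hexokinase Hk2 at 6.06 FPKM.

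Heat shock genes covered a wide range. Hspa8, the constitutive chaperone, stood at 895 FPKM (9811 reads), Hsp90ab1 at 549.7 FPKM and the endoplasmic reticulum chaperone Hsp90b1 at 163 FPKM. The stress-inducible Hspa1a and Hspa1b stood at 0.155 and 0.370 FPKM (4 and 9 reads). Of their words, 70.1% of Hspa1a, 68.1% of Hspa1b and 61.2% of Hspa8 occur in other genes, and the part of these copies in the levels was not tested. Among immediate early genes, Jund at 171 FPKM (50.1% of its words occur in other genes), Zfp36 at 78.5 FPKM and Btg2 at 74.2 FPKM led, while Fos at 1.46 FPKM (22 reads), Atf3 at 1.43 FPKM and Fosb at 0.717 FPKM (24 reads) were near or under the detection level. Proliferation genes, which mark cycling cells, were all detected, 20 of 20, with a median of 17.6 FPKM. Pcna, the replication clamp, led at 71.7 FPKM, before Stmn1 at 49.0 FPKM and Mcm3 at 38.5 FPKM. Mitotic genes ranged from Ube2c at 23.7 FPKM and Birc5 at 20.4 FPKM to Plk1 at 8.70 FPKM and Bub1, the lowest member, at 3.49 FPKM. Mki67, a general marker of cycling cells, stood at 10.4 FPKM (875 reads).

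Interferon-responsive genes were present at moderate levels. All 20 measured members of the interferon-stimulated list were detected, with a median of 22.7 FPKM. Ifi27l2a stood far above the rest at 386 FPKM and gave 38.4% of the list's sum, and Ifitm3, which restricts viral entry, and Bst2, which tethers budding virus, followed at 117 and 102 FPKM. Rsad2, or viperin, was lowest at 5.27 FPKM. All 13 measured interferon gamma-induced genes were detected, with a median of 35.9 FPKM, from Tap1 and Psmb9 down to the feedback inhibitor Socs1 at 14.6 FPKM. The messages of the interferons themselves were at the other end of the scale. Ifng was at 0.210 FPKM (2 reads, interval 0.242 to 7.22), and Ifnb1, Ifnk, Ifnl2 and Ifnl3 were listed at 0.

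**Figure D2:**
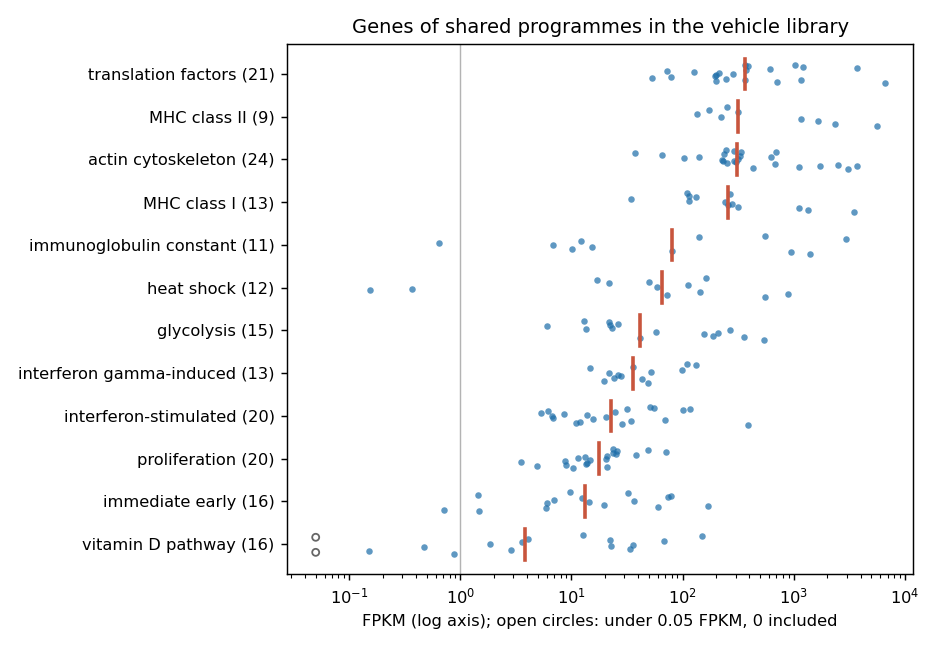
Levels of the genes of 12 shared programmes in the vehicle library (x axis, FPKM, log scale), with the number of measured genes in brackets and lists ordered by median. Each dot is a gene, the red bar is the list's median, the grey line is the 1 FPKM detection level and open circles are genes listed at 0. The medians run from 362 FPKM for translation factors to 3.81 FPKM for the vitamin D pathway.

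Cell lineages were read through 30 lists of marker genes, 287 symbols of which 279 were measured. Of these 225 were detected, beside 56.3% of all protein-coding loci; the markers were chosen as known genes of lymph nodes and neighbouring tissues, so nothing is read from that share. B cell markers took the largest sum, 3408 FPKM or 0.586% of the library's FPKM and 0.738% of its reads (0.732% to 0.744%). White adipocyte markers came next with 2775 FPKM, then macrophage markers with 2386 FPKM, T cell markers with 1442 FPKM and follicular dendritic cell markers with 1392 FPKM. Sums depend on which genes a list holds, and the order of medians differed. Medians were 317 FPKM for follicular dendritic cells, 129 FPKM for B cells and 78.0 FPKM for migratory dendritic cells. White adipocytes followed at 64.4 FPKM, T cells at 60.8 FPKM and macrophages at 40.6 FPKM. The follicular dendritic cell median rests on 5 measured genes and is the level of Cxcl13. Every measured marker of the B cell, T cell, follicular dendritic cell and high endothelial venule lists was detected. In the last 2 of these lists, 5 of 6 listed genes were measured. In the lymphatic endothelium list 7 of 8 were detected, with Ccl21a under the detection level at 0.313 FPKM.

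**Figure D3:**
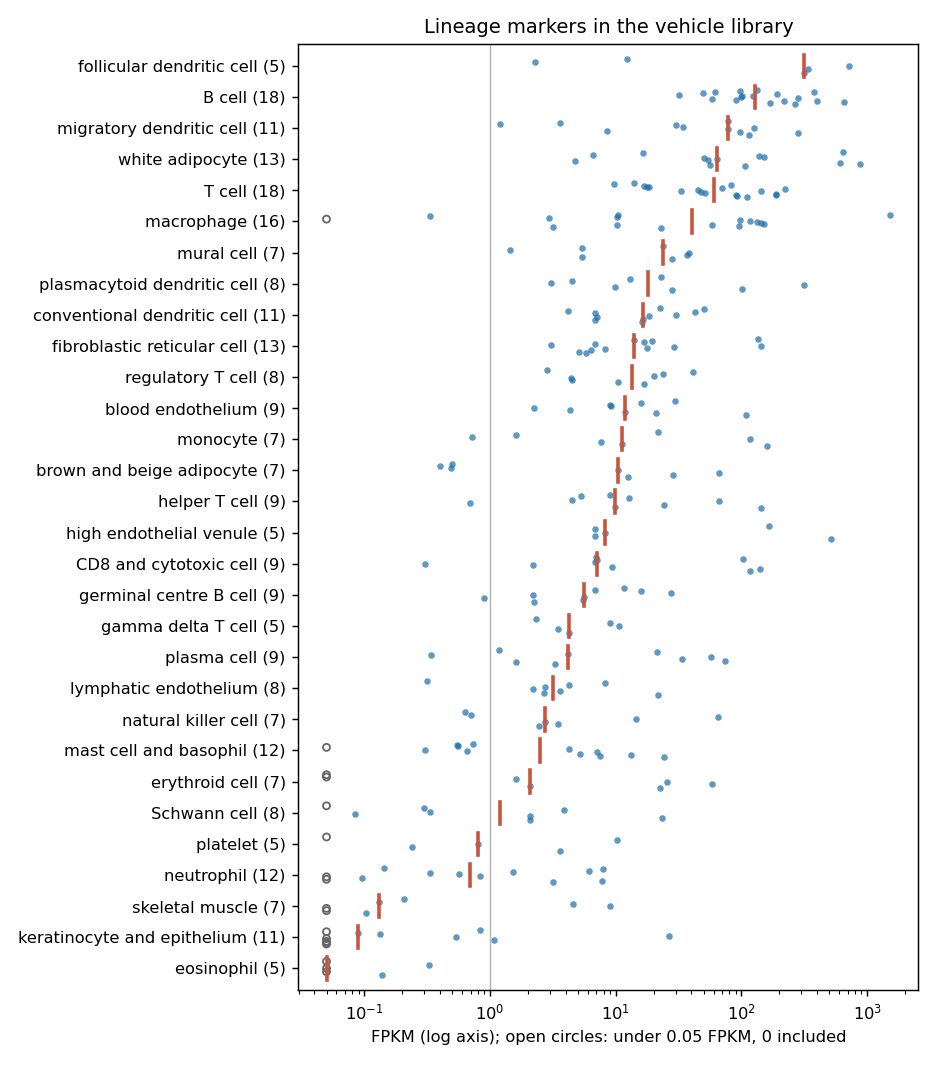
Levels of lineage marker genes in the vehicle library (x axis, FPKM, log scale), with the number of measured markers in brackets and lists ordered by median. Each dot is a gene, the red bar is the median, the grey line is the 1 FPKM detection level and open circles are genes at or near 0. B cell markers all lie above 30 FPKM, while eosinophil markers all lie under 1 FPKM.

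All 18 B cell markers were detected, and 11 exceeded 100 FPKM. The antigen receptor signalling chains led, with Cd79a at 656 FPKM (7764 reads, chromosome 7, 24897381 to 24902197) and Cd79b at 402 FPKM (3822 reads). The IgM receptor gene Fcmr stood at 375 FPKM, the low-affinity IgE receptor gene Fcer2a, which marks follicular B cells, at 280.3 FPKM and Ms4a1, which encodes CD20, at 168 FPKM. The complement receptor gene Cr2 reached 99.9 FPKM, and the early B cell factor Ebf1 was the lowest member at 31.8 FPKM (1698 reads). The medians of the germinal centre and plasma cell lists were lower, although Xbp1, Mzb1 and Jchain of the plasma cell list stood above Ebf1.

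Germinal centre markers had a median of 5.60 FPKM. The repressor Bcl6, the master factor of germinal centres, was their highest at 27.5 FPKM, the death receptor Fas stood at 16.0 FPKM and the repair enzyme Neil1 at 11.7 FPKM. Rgs13, a regulator of G protein signalling, was under the detection level at 0.892 FPKM (11 reads). Plasma cell markers had a median of 4.20 FPKM. Genes of the secretory pathway led, Xbp1 at 73.6 FPKM and Mzb1 at 56.9 FPKM, with the joining chain Jchain at 33.8 FPKM. The value of Mzb1 is uncertain, since 76.2% of its words occur in other genes. The more restricted Prdm1, Sdc1 and Tnfrsf17, which encode Blimp-1, syndecan 1 and BCMA, stood at 1.61, 3.29 and 0.341 FPKM.

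Immunoglobulin constant genes gave the isotypes. Igkc, the kappa light chain constant region, was at 2984 FPKM (9671 reads), Ighm at 1401 FPKM (19224 reads) and Ighd at 943 FPKM (14189 reads), so that Ighm was 1.49 times Ighd. Naive B cells carry IgM and IgD together. Among switched isotypes Ighg1 stood at 80.5 FPKM (773 reads), Ighg2c at 15.3 FPKM, Ighe at 12.3 FPKM (135 reads), Ighg2b at 10.2 FPKM and Ighg3 at 6.82 FPKM. Ighm was 17.4 times Ighg1. Igha, the isotype of mucosal surfaces, was the lowest at 0.639 FPKM (14 reads, interval 7.65 to 23.5). The lambda chains followed kappa at 553 FPKM for Iglc3 and 141 FPKM for Iglc1, which are near-identical copies with other lambda constant genes, so their split is uncertain. At least 1 read was found at 91 of 115 heavy chain variable loci and 93 of 99 kappa variable loci, beside 20362 of all 46951 loci. The heavy chain variable loci had 1507 reads in all, and how evenly the segments were used was not examined.

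All 18 T cell markers were detected, from 220.3 FPKM for the factor Tcf7 (4737 reads) down to 9.67 FPKM for the adaptor Trat1. The CD3 chains stood at 190.0 FPKM for Cd3g, 112 FPKM for Cd3e, 91.8 FPKM for Cd3d and 90.4 FPKM for the zeta chain Cd247. For Cd247, 85.4% of the words occur in other genes, so its value is uncertain. The costimulator partner Cd2 stood at 188 FPKM and the adaptor Lat at 144 FPKM. The B cell sum was 2.36 times the T cell sum, over 18 markers each, and the ratio of the medians was 2.11. T cell receptor constant genes stood at 518 FPKM for the alpha locus and 485 FPKM summed over the beta loci, and all 20 measured beta variable loci had a read, against 60 of 108 alpha variable loci.

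Within T cells, Cd4 (144 FPKM, 2923 reads) was 1.24 times Cd8a (116 FPKM, 2723 reads), and Cd8b1 stood at 141 FPKM. Cd4 is also made by some dendritic cells and macrophages, and Cd8a by a class of dendritic cells. Follicular helper genes beyond Cxcr5 (66.3 FPKM, shared with B cells) and the costimulator Icos (24.3 FPKM) were lower, with Pdcd1 at 4.50 FPKM and the cytokine Il21 at 0.696 FPKM (18 reads). Of 8 regulatory T cell markers all were detected, with the TNF receptor family members Tnfrsf4 and Tnfrsf18 at 41.1 and 23.8 FPKM, the checkpoint gene Ctla4 at 20.1 FPKM, the lineage factor Foxp3 at 16.7 FPKM (565 reads), the interleukin 2 receptor alpha chain Il2ra at 10.4 FPKM and Gpr83 lowest at 2.84 FPKM. The granule gene Nkg7 stood at 104 FPKM, near the level of Cd8a. Perforin and the granzymes were low beside the CD8 chains, with Prf1 at 6.90 FPKM, Gzma at 9.29 FPKM, Gzmb at 2.18 FPKM and Gzmk at 0.305 FPKM (2 reads). Natural killer genes were led by Klrd1, which cytotoxic T cells share, at 65.6 FPKM, while the restricted receptor Ncr1 stood at 2.44 FPKM (29 reads), and Klra4 and Klri2 were under 1 FPKM. Gamma delta T cell genes were led by Tcrg-C1 at 10.6 FPKM and Tcrg-C2 at 8.98 FPKM. The delta constant gene Trdc stood at 4.27 FPKM and Cd163l1 was lowest at 2.31 FPKM. Of the words of Tcrg-C1 and Tcrg-C2, 51.0% and 45.9% occur in other genes, so their values are uncertain.

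Macrophage markers were dominated by lysozyme. Lyz2 stood at 1529 FPKM (15386 reads, rank 44) and gave 64.1% of the list's sum, and 32.8% of its words occur in other genes, among them its paralogue Lyz1 (193 FPKM). The complement starter genes C1qa, C1qb and C1qc stood at 153, 144 and 132 FPKM. Genes of resident node macrophages were clear, with the scavenger receptor Marco at 117 FPKM, the apoptotic cell receptor Timd4 at 98.2 FPKM and sialoadhesin Siglec1, a marker of subcapsular and medullary macrophages, at 22.7 FPKM. Adgre1, which encodes F4/80, stood at 3.20 FPKM and the Fc receptor gene Fcgr1, the lowest detected member, at 2.95 FPKM. Cd163 was at 0.331 FPKM (15 reads) and Vsig4 listed at 0. Monocyte markers summed to 319 FPKM, led by Ly6c2 at 159.7 FPKM, which lymphocytes also express, and Plac8 at 116 FPKM, with the chemokine receptor Ccr2 at 11.2 FPKM and the lectin-like Chil3 at 0.714 FPKM.

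Dendritic cell genes were read in 3 lists. The list of migratory cells, the mature dendritic cells that leave the skin for the node, had a median of 78.0 FPKM, and that of conventional cells one of 16.6 FPKM. The first median is the level of Relb, an NF-kB subunit that B cells also express. Fscn1, the actin bundler of mature dendritic cells, stood at 282 FPKM (4898 reads), Apol7c at 127 FPKM, the homing receptor Ccr7, which naive T cells share, at 115 FPKM and the chemokine Ccl22 at 97.1 FPKM (1834 reads). Cd207, or langerin, the marker of Langerhans cells and of a class of dermal dendritic cells, was the lowest at 1.21 FPKM (15 reads), and Epcam, also of Langerhans cells, stood at 3.59 FPKM. Among conventional markers Sirpa stood at 50.2 FPKM, Naaa at 42.8 FPKM and Wdfy4, needed for cross-presentation, at 30.4 FPKM, while Xcr1 of cross-presenting cells stood at 7.13 FPKM and Cd209a was lowest at 4.14 FPKM. The plasmacytoid list summed to 500 FPKM, but 317 FPKM of it came from Ly6d, which B cells also express, and 102 FPKM from Bst2, an interferon-stimulated gene. The restricted receptor Siglech stood at 27.8 FPKM (460 reads) and Cox6a2 at 3.03 FPKM.

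Granulocyte genes were scarce. Of 12 neutrophil markers 5 were detected, with the receptors Cxcr2 and Csf3r at 7.86 and 6.16 FPKM and the abundant calprotectin genes S100a9 and S100a8 at 7.82 and 3.20 FPKM (24 and 9 reads), and Retnlg lowest of these at 1.52 FPKM. Ly6g and Elane were listed at 0, and Mpo, Mmp8, Ltf, Camp and Ngp were between 0.0967 and 0.829 FPKM. None of 5 eosinophil markers was detected, with 6 reads in all, and Epx and Ear6 were listed at 0. Mast cell proteases were present, with Mcpt4 at 24.3 FPKM (182 reads), Tpsb2 at 13.2 FPKM, chymase Cma1 at 7.49 FPKM and Cpa3 at 5.18 FPKM. The high-affinity IgE receptor chains Fcer1a and Ms4a2 stood at 0.660 and 0.306 FPKM (5 and 7 reads), the histamine enzyme Hdc, Tpsab1 and Mrgprb1 were also under 1 FPKM, and the basophil protease Mcpt8 was listed at 0.

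Stromal genes of follicle and paracortex gave contrasting levels. Clu, Mfge8 and Cxcl13, which follicular dendritic cells make in quantity, stood at 721, 339.6 and 317 FPKM (10601, 5752 and 2853 reads), the lymphotoxin receptor Ltbr at 12.3 FPKM and Coch lowest at 2.29 FPKM. The fibroblastic reticular list had a median of 14.0 FPKM and was led by matrix genes, Dcn at 142 FPKM, Sparc at 134 FPKM and Col1a2 at 29.1 FPKM, with Lum lowest at 3.07 FPKM. Its chemokine Ccl19 stood at 5.81 FPKM (25 reads), and Ccl21a, which reticular and lymphatic cells make, at 0.313 FPKM (2 reads), with Ccl21c at 0.315 FPKM and Ccl21b listed at 0. Ccl21 is known as an abundant product of lymph node stroma. Of the 31-base words of the longest transcript, 65.3% of Ccl19, 80.6% of Ccl21a and 100% of Ccl21b occur in other genes, and the part of these copies in the low values was not tested. The survival cytokine Il7 stood at 6.83 FPKM and the T zone marker Pdpn at 5.15 FPKM. Which cells made the matrix messages of the reticular list was not tested.

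Endothelial genes included those of the vessels that admit lymphocytes. Glycam1, the mucin of high endothelial venules, stood at 517 FPKM (2124 reads, chromosome 15, 103562762 to 103565078), and gave 73.4% of its list's sum. Enpp2, or autotaxin, stood at 165 FPKM, and Fut7 and Chst4, enzymes that decorate the mucins of these vessels, at 8.26 and 6.85 FPKM, with the addressin Madcam1 at 6.87 FPKM. General blood endothelial genes were led by Pecam1, which leukocytes share, at 109 FPKM, then Cldn5 at 29.5 FPKM and VE-cadherin Cdh5 at 21.0 FPKM, and Tek was lowest at 2.23 FPKM. Lymphatic genes were lower, from the hyaluronan receptor Lyve1 at 21.8 FPKM, Stab2 at 8.18 FPKM and the scavenging chemokine receptor Ackr4 at 4.25 FPKM to Mmrn1 at 2.18 FPKM. Pericyte and smooth muscle genes had a median of 23.6 FPKM, led by Rgs5 at 38.6 FPKM, Tagln at 37.0 FPKM and Acta2 at 27.9 FPKM, with Cspg4 lowest at 1.44 FPKM.

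Fat genes were among the most abundant non-lymphoid messages. All 13 white adipocyte markers were detected, led by the fatty acid carrier Fabp4 at 877 FPKM (6033 reads, rank 98), the carbonic anhydrase Car3 at 644 FPKM (8854 reads) and adipsin Cfd at 607 FPKM (4172 reads). The hormone genes were lower, with adiponectin Adipoq at 107 FPKM (1104 reads), resistin Retn at 53.8 FPKM and leptin Lep at 4.72 FPKM. The lipid droplet genes Cidec and Plin1 stood at 64.4 and 56.1 FPKM. The 7 brown and beige fat markers summed to 119 FPKM, so the sum of the 13 white markers was 23.4 times theirs. The ratio of the medians was 6.18. Cox8b stood at 66.1 FPKM (109 reads), Cidea at 28.4 FPKM and the uncoupling protein Ucp1 at 12.4 FPKM (168 reads), and Elovl3, Ppargc1a and Dio2 were under 1 FPKM. How much of this RNA came from the fat around the node was not tested.

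Genes of other neighbouring tissues were low. Keratin genes of skin were at 1.08 FPKM for Krt10 and 0.0476 FPKM for Krt1, with Krt5, Krt14 and Krt19 listed at 0, and Sfn gave 90.7% of its list's sum at 26.7 FPKM. Of 7 measured muscle markers, Mylpf and Tnnt3 were detected at 9.08 and 4.60 FPKM (20 and 24 reads), Ckm was at 0.102 FPKM, and Myh1 and Myh4 were listed at 0. Schwann cell genes were led by Mbp, which lymphocytes also transcribe, at 23.3 FPKM, then Ncmap at 3.87 FPKM, with Sox10 at 0.0850 FPKM (2 reads) and Mal listed at 0. Globin genes were at 58.3 FPKM for Hba-a1, 25.5 FPKM for Hba-a2 and 22.5 FPKM for Hbb-bs, genes with near-identical copies whose split is uncertain, and Slc4a1 was listed at 0. Platelet genes were led by Itga2b at 10.2 FPKM and Pf4 at 3.63 FPKM, with Ppbp at 0.239 FPKM and Gp9 listed at 0.

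Of 227 listed transcription factors, 216 were measured and 208 were detected, beside 56.3% of all protein-coding loci, and their median of 20.3 FPKM lay above 66.4% of the detected loci. Their summed FPKM was 1.29% of the library. The group was chosen for its known expression in immune and stromal cells. Hmgb1, an abundant chromatin protein, was highest at 299 FPKM (2141 reads, rank 214), with 43.5% of its words in other genes. The interferon-inducible nuclear body protein Sp100 stood at 288 FPKM, and its relative Sp110 at 109 FPKM, with 69.3% of the words of Sp110 in other genes.

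Factors of quiescent lymphocytes followed. Klf2, which maintains quiescence and recirculation of naive T cells, stood at 221 FPKM (3415 reads, chromosome 8, 72319033 to 72321656), 34.6 times its relative Klf4 at 6.39 FPKM. Tcf7, which encodes TCF-1, stood at 220.3 FPKM, 3.15 times Lef1 at 70.0 FPKM, and Ets1 at 168 FPKM (7136 reads). Foxo1, which drives Klf2, was lower at 27.7 FPKM, and Foxp4, the highest of its family on the list, stood at 61.0 FPKM. Zfp36l1, listed with the zinc finger genes, encodes an RNA-binding protein that promotes message decay. It stood at 187 FPKM, with 61.5% of its words in other genes. The Ikaros genes were led by Ikzf1 at 80.9 FPKM and Ikzf3 at 61.6 FPKM.

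B cell identity factors came next. Spib stood at 133 FPKM and Spi1, or PU.1, shared with myeloid cells, at 91.3 FPKM, a ratio of 1.46. The octamer co-activator Pou2af1 stood at 98.2 FPKM with its partner Pou2f2 at 50.5 FPKM, and Pax5 at 90.3 FPKM (4739 reads). The inhibitor of E proteins Id2, found in innate and effector cells, stood at 101 FPKM, before its relative Id3 at 56.6 FPKM and the E protein Tcf3 at 59.1 FPKM. Satb1, a chromatin organiser of T cells, stood at 63.7 FPKM.

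Signal-driven factors were mostly moderate. Among interferon regulatory factors, Irf3 stood at 125 FPKM, Irf1 at 99.1 FPKM, Irf5 at 84.5 FPKM and the effector-stage Irf4 lowest at 21.5 FPKM. Among NF-kB subunits, Nfkb1 stood at 88.1 FPKM, Relb at 78.0 FPKM, Nfkb2 at 63.0 FPKM and Rel at 21.4 FPKM. Stat6, which relays interleukin 4, was the highest of 5 measured STAT genes at 89.4 FPKM, before Stat3 at 59.2 FPKM. Mef2d led the NFAT and MEF2 list at 60.8 FPKM with Nfatc1 at 50.1 FPKM. Within AP-1, Jund stood at 171 FPKM, 2.85 times Junb at 59.9 FPKM and 117 times Fos, and Jun stood at 5.87 FPKM. The unfolded protein response factors Xbp1 and Atf4 stood at 73.6 and 67.9 FPKM. The tumour suppressor Trp53 stood at 113 FPKM (1799 reads), and Myc at 41.2 FPKM, below its partner Max at 72.0 FPKM.

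Factors of T cell subsets ranged widely. Runx3, of CD8 cells among others, stood at 28.3 FPKM, Bcl6, of follicular helper and germinal centre B cells, at 27.5 FPKM, Zbtb7b, of CD4 cells, at 27.3 FPKM and Foxp3 at 16.7 FPKM. The effector factors Eomes, Tbx21 and Prdm1 stood at 7.03, 3.27 and 1.61 FPKM. Gata3 shares its locus with another coding gene and was given no value. The 8 factors under 1 FPKM were Gata1, the erythroid and mast cell factor, at 0.939 FPKM, Vdr at 0.873 FPKM, Fosb at 0.717 FPKM, Nr4a2 at 0.526 FPKM, Sox5 at 0.433 FPKM, the fat oxidation factor Ppara at 0.277 FPKM, Mycn at 0.276 FPKM and the granulocyte factor Cebpe at 0.102 FPKM (1 reads).

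Receptors and surface proteins were headed by lymphocyte genes. Of 223 listed, 215 were measured and 203 detected, beside 56.3% of all protein-coding loci. The group was chosen by hand, so nothing is read from that share. Its median was 17.1 FPKM and it held 2.40% of the library's FPKM. Cd52 stood at 2351 FPKM (7226 reads, rank 21), 16.9% of the whole group's sum. It was followed by Cd79a, the tetraspanin Cd37 at 566 FPKM and Glycam1, which is a secreted mucin kept in this group for its role in homing. B cell genes among the 15 highest included Cd79a, Cd79b, Fcmr, Fcer2a, the inhibitory receptor Cd22 at 218 FPKM and Cd72 at 193 FPKM. For Cd72, 54.6% of the words occur in other genes. Thy1, a surface marker of mouse T cells, stood at 281 FPKM, and the broad leukocyte genes Cd53 and Ptprc at 279.5 and 246 FPKM. Selplg, the P-selectin ligand of leukocytes, stood at 267 FPKM. All 20 antigen receptor and coreceptor genes were detected, down to the T cell coreceptor Cd6 at 47.6 FPKM.

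Chemokine receptors followed the map of the node. Ccr7, which guides cells to the paracortex, stood at 115 FPKM (1915 reads), Cxcr4 at 85.3 FPKM and the follicle receptor Cxcr5 at 66.3 FPKM. Inflammatory receptors were lower, with Cxcr3 at 22.2 FPKM, Ccr2 at 11.2 FPKM, and the skin-homing receptors Ccr4, Ccr8 and Ccr10 at 3.84, 5.09 and 1.95 FPKM. Ackr2, a decoy receptor, was the lowest detected member at 1.53 FPKM, and Ackr3, Ccr1 and the eosinophil receptor Ccr3 were at 0.896, 0.853 and 0.0348 FPKM. Lipid receptors were led by S1pr1, which lets lymphocytes leave the node, at 85.6 FPKM (2278 reads), then Gpr18 at 66.9 FPKM and Gpr132 at 51.8 FPKM, with Ptger2 lowest of those detected at 1.17 FPKM and S1pr5 and Adora2b under 1 FPKM.

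Cytokine receptors were led by Il21r at 102 FPKM (2154 reads), Ifngr1 at 96.9 FPKM and Il4ra at 63.7 FPKM. The naive T cell survival receptor Il7r stood at 61.2 FPKM and the shared signal transducer Il6st at 51.6 FPKM. Il23r was the lowest detected at 1.21 FPKM, and Il1rl1, the receptor of interleukin 33, stood at 0.673 FPKM (25 reads). In the TNF receptor superfamily Cd27 stood at 112 FPKM, the BAFF receptor Tnfrsf13c at 109.7 FPKM and TACI, Tnfrsf13b, at 70.7 FPKM, all genes of lymphocytes, while Tnfrsf8, or CD30, was lowest of those detected at 1.30 FPKM. Among costimulators and checkpoints all 25 were detected, with the inhibitory receptor Btla at 154 FPKM (4368 reads), Cd27 and Cd48 (92.6 FPKM) highest and Cd244 lowest at 2.91 FPKM. Cd86 stood at 29.8 FPKM and Cd80 at 4.18 FPKM.

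Innate receptors were more uneven. The MD-1 gene Ly86 stood at 141 FPKM, Marco at 117 FPKM and the lipid scavenger Cd36 at 65.4 FPKM. Toll-like receptors ranged from Tlr1 at 64.2 FPKM to Tlr8 at 0.626 FPKM, with Tlr9 and Tlr7 at 13.6 and 13.5 FPKM and Tlr4 at 4.01 FPKM. Clec4e was the lowest detected at 1.70 FPKM and Clec4d stood at 0.967 FPKM. Among Fc and complement receptors the common gamma chain Fcer1g stood at 165 FPKM behind Fcmr and Fcer2a, Fcgr4 was lowest of those detected at 1.20 FPKM, and the anaphylatoxin receptors C5ar1 and C3ar1 stood at 0.328 and 0.157 FPKM. Growth factor receptors were led by Tgfbr2 at 75.3 FPKM (3189 reads), Notch2 at 22.5 FPKM and Ghr at 17.1 FPKM, and Egfr was lowest at 1.14 FPKM. Among adhesion genes, the addressin Madcam1 was lowest, while the integrin chains Itgb7, Itgb2 and Itgal stood at 106, 83.9 and 75.9 FPKM.

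Of 259 listed secreted factors, 249 were measured and 182 were detected, beside 56.3% of all protein-coding loci, and 19 were listed at 0. Their median was 6.84 FPKM, yet they held 4.66% of the library's FPKM. Several of the highest are mainly intracellular proteins for which release from cells has been described: Tmsb4x, Tmsb10, the nuclear protein Ptma at 669 FPKM and S100a11 at 350.0 FPKM. B2m circulates but is chiefly a membrane-bound chain of MHC class I. Among conventional secreted proteins Apoe was highest at 2177 FPKM (16405 reads, chromosome 7, 19696109 to 19699188), then Lyz2, the chemokine Ccl5, the lysosomal activator precursor Psap at 797 FPKM (17962 reads), Clu and Cfd. Complement C3 stood at 551 FPKM (13465 reads), the protease inhibitor Cst3 at 546 FPKM and the antigen-processing protease Ctss at 404 FPKM. Ltb, whose lymphotoxin beta chain stays on the lymphocyte surface, stood at 355 FPKM.

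**Figure D4:**
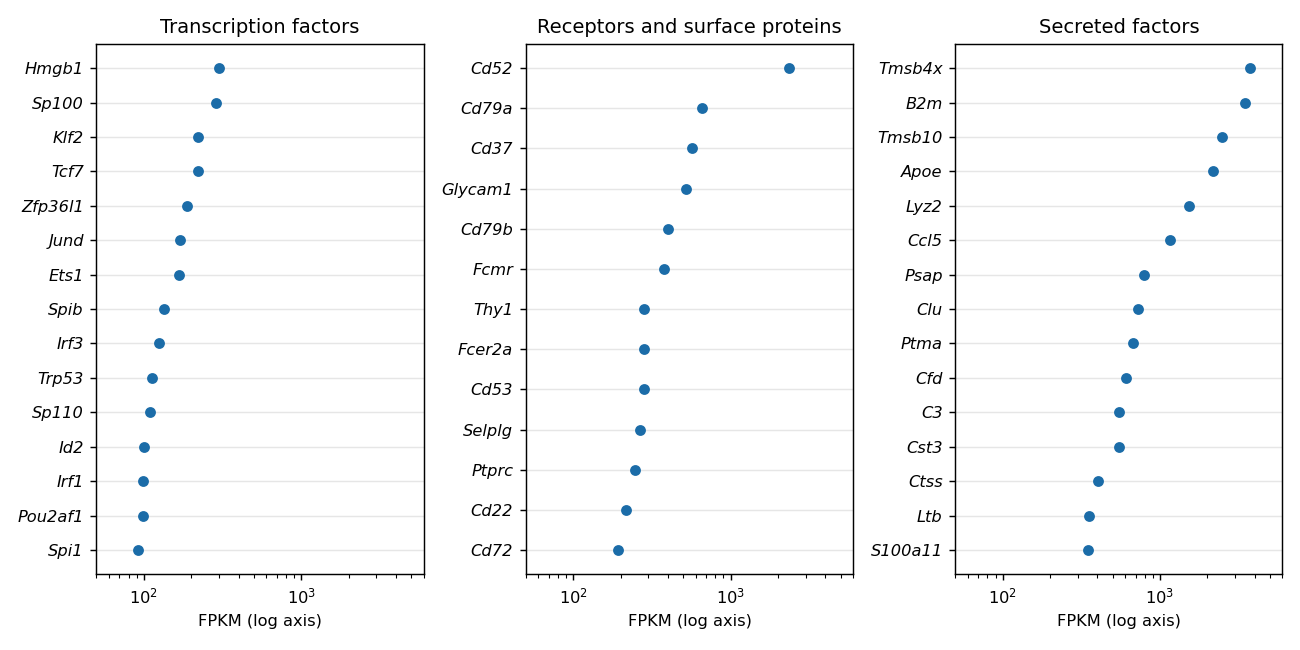
The 15 highest transcription factors, 13 of the 15 highest receptors and surface proteins, and the 15 highest secreted factors of the vehicle library (x axes, FPKM, log scale, the same range in each panel). Each dot is a gene's level in the 1 library. Transcription factors run from 299 FPKM (Hmgb1) to 91.3 FPKM (Spi1), receptors from 2351 FPKM (Cd52) to 193 FPKM (Cd72) and secreted factors from 3750.0 FPKM (Tmsb4x) to 350.0 FPKM (S100a11).

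Chemokines were led by Ccl5, a product of cytotoxic and memory T cells, at 1150.3 FPKM (3737 reads), 53.4% of the family's sum. The homeostatic Cxcl13 and Cxcl12 stood at 317 and 194 FPKM. The monocyte attractant Ccl8 stood at 123 FPKM (374 reads), the dendritic cell product Ccl22 at 97.1 FPKM, Cxcl16 at 75.5 FPKM and the interferon gamma-induced Cxcl9 and Cxcl10 at 48.9 and 19.7 FPKM. Of 37 chemokines 25 were detected, Cxcl14 lowest at 1.12 FPKM. The neutrophil attractants Cxcl1 and Cxcl5 stood at 0.698 and 0.155 FPKM, and Ccl24, Ccl28, Cxcl11 and Ppbp were also under 1 FPKM. Ccl20, Cxcl2 and Cxcl15 were listed at 0, as was Ccl21b.

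Interleukins and interferons were the lowest family. Of 40 measured, 17 were detected and 11 were listed at 0, and the median was 0.603 FPKM. Il16, a constitutive lymphocyte product, led at 86.6 FPKM (2409 reads), before Clcf1 at 52.7 FPKM and the interleukin 18 antagonist Il18bp at 26.9 FPKM. Il33, an alarmin of stromal cells, stood at 20.3 FPKM (444 reads). Cytokines of effector T cells were near 0: Il2 at 0.336 FPKM (3 reads), Il4 at 0.510 FPKM (2 reads), Il21 at 0.696 FPKM (18 reads), Il5 at 0.0795 FPKM, Il17f at 0.246 FPKM and Csf2 at 0.349 FPKM. Il3, Il9, Il11, Il13, Il17a, Il22 and Il23a were listed at 0. Il10 and Il27 stood at 0.955 and 0.899 FPKM, Il6, Lif and Csf3 at 0.188, 0.387 and 0.175 FPKM, and Il1b was the lowest detected at 1.10 FPKM (12 reads, interval 6.20 to 21.0). Il2, Il4, Il5, Il17f and Csf2 rested on 1 to 3 reads each, so these levels are known within wide limits.

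The TNF superfamily was dominated by Ltb, 79.1% of its sum, followed by its partner Lta at 28.2 FPKM and the B cell survival factor Tnfsf13b at 10.8 FPKM. Tnf stood at 10.3 FPKM and the T cell helper ligand Cd40lg at 9.78 FPKM. Fasl was the lowest detected at 1.41 FPKM, and Tnfsf15, Tnfsf4, Cd70 and Tnfsf18 were under 1 FPKM. Growth factors were led by Mif at 170.4 FPKM (54.9% of its words occur in other genes), the immunoregulatory Tgfb1 at 144 FPKM (2599 reads) and progranulin Grn at 115 FPKM. Fgf7 and Hbegf were the lowest detected at 1.03 and 1.03 FPKM, and Angpt1, Tgfb2, Hgf, Areg, Inhba and Wnt4 were under 1 FPKM and Bdnf listed at 0.

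Complement genes of the early cascade were higher than those of its end. The C1q chains, with the inhibitor Serping1 at 147 FPKM and C4b at 67.5 FPKM, C3 and properdin Cfp at 82.4 FPKM were all well detected, whereas C6 at 2.90 FPKM was the lowest detected member, and Hc, C7, C8a, C8g and C9, of the membrane attack complex, were under 1 FPKM or listed at 0. C4a and C4b share 48.9% and 48.8% of their words with other genes, so the split is uncertain. Matrix genes were led by the proteoglycan Bgn at 222 FPKM, gelsolin Gsn at 171 FPKM and Dcn, and Tnxb was lowest of those detected at 1.16 FPKM with Spp1, Fbln1 and Lama2 under 1 FPKM. Among proteases and inhibitors, cathepsins Ctsh and Ctsz stood at 209 and 202 FPKM, and Timp1 stood at 0.994 FPKM. Among blood proteins and adipokines, Lpl and Adipoq followed Apoe, Saa3 was lowest of those detected at 1.22 FPKM, Alb stood at 0.523 FPKM (9 reads) and Apoa1 and Ttr were listed at 0.

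Ligands and their receptors were set side by side in 43 pairs written after the levels had been seen. The receptor was higher in 31 pairs and the ligand in 12. In 13 pairs the ligand was under 1 FPKM while the receptor was detected, and 12 pairs had both partners at or above 10 FPKM. Cytokines of activated T cells showed the first pattern, with Il21 at 0.696 FPKM beside Il21r at 102 FPKM, Ifng at 0.210 FPKM beside Ifngr1 at 96.9 FPKM and Il4 at 0.510 FPKM beside Il4ra at 63.7 FPKM. Some chemokines and the lymphotoxin of node architecture showed the reverse, with Cxcl13 at 317 FPKM beside Cxcr5 at 66.3 FPKM, Cxcl12 at 194 FPKM beside Cxcr4 at 85.3 FPKM and Ltb at 355 FPKM beside Ltbr at 12.3 FPKM. Ccl19 at 5.81 FPKM beside Ccr7 at 115 FPKM and Ccl25 at 5.49 FPKM beside Ccr9 at 9.82 FPKM had the higher receptor, with the limit on Ccl19 given above. Il33 at 20.3 FPKM beside Il1rl1 was the pair whose receptor was not detected. A message level says nothing of protein, and messages of cytokines are made in bursts by few cells.

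**Figure D5:**
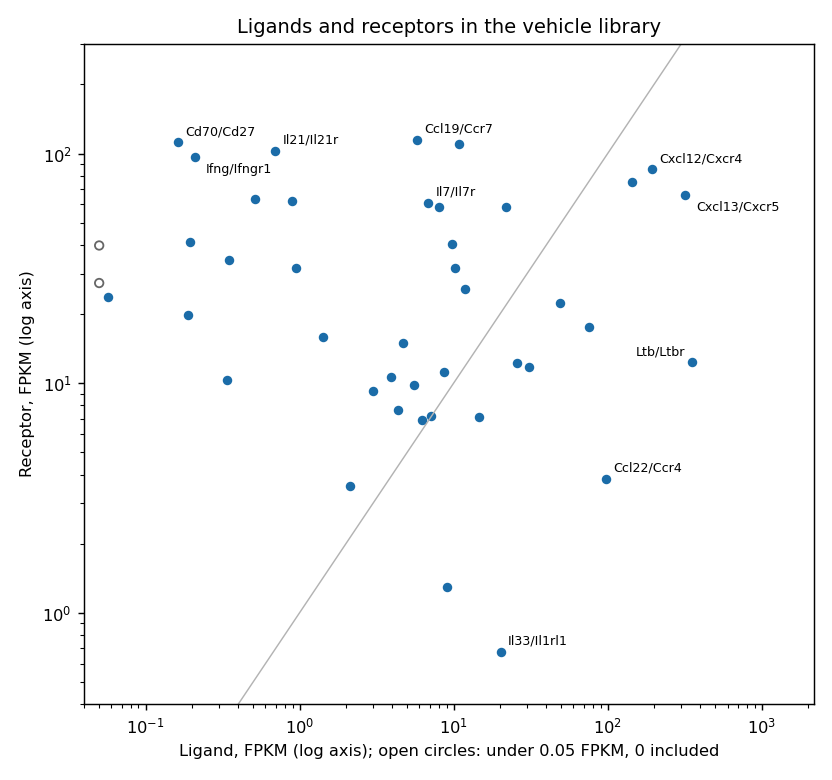
Ligand level (x axis, FPKM, log scale) and receptor level (y axis, FPKM, log scale) of 43 ligand and receptor pairs in the vehicle library. Each dot is a pair, open circles are ligands listed at 0 and the line marks equal levels. The 31 pairs left of the line have the higher receptor, and Cxcl13, Cxcl12, Ltb and Ccl22 lie to its right.

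Genes of the vitamin D system, on which the injected compounds of the other groups act, ranged widely in the node that received vehicle. The 16 listed genes had a median of 3.81 FPKM, and 7 stood at or above 10 FPKM. Vdr, the vitamin D receptor, stood at 0.873 FPKM (34 reads, interval 23.5 to 47.5, rank 14211), under the detection level. Cyp27b1, which makes the active hormone, stood at 0.151 FPKM (3 reads, interval 0.619 to 8.77), and Cyp24a1, which degrades it and is the usual reporter of receptor activity, was listed at 0, as was the carrier protein gene Gc. Cyp11a1, the side-chain cleavage enzyme that can hydroxylate vitamin D3, stood at 0.467 FPKM (6 reads), and the 25-hydroxylases Cyp27a1 and Cyp2r1 at 33.4 and 2.85 FPKM. The receptor's partners were higher, with Rxrb at 36.2 FPKM and Rxra at 22.9 FPKM. Other nuclear receptors described as targets of hydroxylated vitamin D3 stood at 68.4 FPKM for the liver X receptor gene Nr1h2, 22.4 FPKM for Nr1h3, 4.03 FPKM for Ahr and 1.84 FPKM for Rora, the lowest detected member. Nr1h2 was 78.3 times Vdr. Pdia3, described as a membrane-associated binder of the hormone but chiefly a chaperone, was the highest of the 16 genes at 148 FPKM. Among all 22 nuclear receptors, Nr1h2 was highest and 20 were detected, with the glucocorticoid receptor Nr3c1 at 22.6 FPKM.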

How the data were processed

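Total RNA of 1 vehicle library was sequenced. The build was GRCm38 and the tools named were Cufflinks 2.2.1, Cuffnorm, Cuffdiff and STAR 2.7.0c, per the submitters' processing notes. Their roles, the annotation release, strand use and read filters were not given in the sources used here. Per locus, the authors deposited an FPKM value and a normalised count signal. The deposited count signal equalled whole reads times the factor 0.938, with 99.9% of 46951 loci within 0.02 of a whole number after division, and these whole numbers are the reads. The 4 columns of the other libraries were not used. Loci of more than 1 symbol (1064, 18.0% of the FPKM) were kept, and a listed gene took such a value where its other symbols are noncoding; 39 of 1039 listed symbols share a locus with another coding gene and have no value, and 3 were not analysed here. The table counts locus starts from 0, and 1 was added.

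The 85 gene lists and the library were chosen with earlier results of these data known. Named by rule were the 25 highest genes, the 15 highest factors of each kind, the 3 highest and the lowest detected member of each list, members under 1 FPKM, Vdr, Cyp24a1 and Cyp27b1; any other gene named was chosen after its value was seen. No test, count model or pseudocount was used, since 1 library has no spread. Intervals for shares of reads are exact 95% Clopper-Pearson and those for reads exact 95% Poisson; without molecular identifiers, reads may be copies of 1 molecule. Shared words are the share of a gene's 31-base words found in transcripts of other genes of a GRCm38 annotation, overlapping models included. Of 1034 listed genes examined, 58 had at least 50% of their words in other genes, and not every one is marked above. Values of some named genes are not reported here. Recovery of the reads was tested on simulated data, and the assignment of listed genes to loci on a small made example. The shares, medians and ranks were not tested in this way. Python 3.11.15, numpy 2.4.6, pandas 2.3.3, scipy 1.17.1 and matplotlib 3.10.9 were used.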

Additional observations from a re-analysis of the deposited data

How the results depend on the processing

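With 1 library, no replicate could be left out, and no pseudocount was used. No paired analysis was possible because each group has 1 library and no test was made. Loci detected numbered 18815 at 0.1 FPKM, 9808 at 5 FPKM and 13183 when 10 reads were also required. As shares of reads, ribosomal protein loci held 6.80%, mitochondrial loci 2.12% and immunoglobulin loci 0.646%. With loci of several symbols left out of both the class and the total, these were 18.9%, 0% and 1.94% of the FPKM. No mitochondrial locus with a value has a symbol of its own. As shares of reads, markers of B cells held 0.738%, T cells 0.265%, macrophages 0.341% and white adipocytes 0.390%. With immunoglobulin, T cell receptor, mitochondrial, ribosomal protein and small RNA loci out of the total, B cell markers held 0.801%, T cell markers 0.339%, macrophage markers 0.561% and white adipocyte markers 0.652% of the FPKM. Without each list's highest member they held 0.473%, 0.210%, 0.147% and 0.326%. Without loci of several symbols among the markers, but with these loci kept in the total, T cell markers held 0.232%. Leaving out members of several lineage lists changed nothing, as there were 0. B cell markers had the highest sum under every one of these settings, and the 5 highest lists were the same 5. Ranked by reads, 7 of the 15 highest transcription factors, 13 of the receptors and 11 of the secreted factors were kept, against 13, 15 and 15 without loci of several symbols. Values under 1 FPKM rest on few reads, and a listed 0 can be a failed estimate.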

Other observations

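Among genes on no list, several with known roles in leukocytes stood high in the vehicle library. They were chosen after their values were seen. Shisa5, an endoplasmic reticulum protein gene, stood at 1282 FPKM (11689 reads, rank 67) and the ferritin heavy chain gene Fth1 at 1704 FPKM (10815 reads). The leukocyte actin-binding protein gene Lsp1 stood at 819 FPKM (6610 reads), the signalling gene Arhgef1 at 573 FPKM, the mitochondrial carrier gene Ucp2 at 511 FPKM (8313 reads) and the lysosomal protein gene Laptm5 at 496 FPKM (9390 reads). Genes of fat synthesis were also in the highest 200 places, with Fasn at 413 FPKM (9923 reads) and Scd1 at 400.2 FPKM (17308 reads). The selenium carrier gene Sepp1 stood at 599.9 FPKM (9628 reads).

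Noncoding RNA was led by Malat1, a nuclear RNA, at 629.7 FPKM (9191 reads), with the overlapping model Gm37376 at 684 FPKM (1715 reads), and by the locus of Neat1 at 311 FPKM (8944 reads) and that of Gas5 at 430 FPKM (1918 reads). Rn18s-rs5 and Gm42418, models of ribosomal RNA sequence, had 10468 and 6823 reads. Predicted models overlap some named factors. Gm11175 stood at 264 FPKM (772 reads) in the locus of Jund, and Gm26669 at 146 FPKM (2207 reads) in the locus of Zfp36l1. Strand use in counting is not given, so reads of such pairs cannot be told apart. Small RNA loci at or above 1 FPKM numbered 28, and all small RNA loci together had 109 reads.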
